A study of Mus musculus with 9 samples.

Results

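Collagen genes and matrix glycoprotein genes were followed in RNA sequencing of mouse retinal cells prepared and labelled as Müller glia, the radial glial cells that span the retina. The marker genes given below went against that label in part. Members were chosen by symbol in the 2 deposited tables of normalized counts: every collagen chain gene, plus 21 named genes of fibronectin, matricellular proteins, laminins, nidogens, perlecan, elastic fibres, small proteoglycans and lysyl oxidases. No threshold on a measured value chose a member, other than being listed at all, but the list was drawn up with earlier results of these data known. Of 17964 genes listed in either table, 64 were members, 43 of them collagens. The table of sorted cells listed 59 and the table of cultures 63, with 58 in both. Col13a1 was listed for sorted cells only, and Col6a1, Col6a4, Col6a5, Col8a2 and Col28a1 for the cultures only. Col6a6 was listed in neither.

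The study held 9 libraries in 3 groups of 3, all of genotype WT. Sham animals had a corneal incision without oil. Animals of the ocular hypertension (OHT) group had 1.2 µL of silicone oil injected into the anterior chamber of each eye, a model of chronic mild pressure elevation. For both groups, 4 retinas were pooled per sample, dissociated with papain, and an antibody to GLAST (ACSA-1), a glutamate transporter also found on astrocytes, retained the cells on a magnetic column. Neither the age of these animals nor the time after injection is given in the sources used here. The third group, labelled primary Müller glia, was untreated cultures from retinas of C57BL/6J pups aged 8 to 10 days, grown in medium with 10% fetal bovine serum on plates coated with 0.1% gelatin and passaged when confluent. Nothing in the labels says that the cultures came from separate litters, so the spread between libraries may be partly technical.

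Collagens are made of 3 chains wound into a triple helix. Fibrillar collagens form the tension-bearing fibres of connective tissue and vitreous, collagen IV forms the sheet of basement membranes together with laminins, nidogens and perlecan, and FACIT collagens decorate the surface of fibrils. In the eye, Müller glial end-feet rest on the inner limiting membrane, a basement membrane, and collagens II, IX and XI together build the fibrils of the vitreous. Matricellular proteins such as Sparc and thrombospondins are secreted into the matrix and act on cells more than on its stiffness.

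Recovered depth was 37.8 to 53.6 M (1e6) reads in the sorted libraries and 66.3 to 76.7 M in the cultures, and 1 read was worth 0.0130 to 0.0264 ppm (reads per 1e6 reads of the library). Members are given as normalized counts within the sorted cells and as ppm across the tables, which were normalized separately. Markers are mostly given in ppm. OHT replicate 1 had the largest normalized total of the sorted libraries, so its ppm are low beside its normalized counts. The labelled cell type did not show evenly in the marker genes. All 10 Müller glia markers were lower in every culture than in any sorted library, against 16.5% of all genes in both tables. Their sum was 235 to 398 ppm against 1564 to 7778 ppm. Acta2, the smooth muscle actin of contractile cells, was at 8134 to 13250 ppm in the cultures and at most 18.0 ppm in a sorted library. Of the 8 mural markers, of pericytes and smooth muscle, 5 including Acta2 were above every sorted library, against 32.5% of all genes. Rgs5 and Kcnj8 were below, and Abcc9 overlapped. Rgs5 averaged 3.04 ppm in cultures and 94.8 ppm in sorted cells, and Tagln only 6.32 ppm in cultures. Rlbp1, a Müller glia marker, was at 2.26, 2.84 and 1.60 ppm in the cultures. In sorted libraries, 10 microglia and macrophage markers summed to 14392 to 25443 ppm, more than the Müller glia markers in each. Because these are bulk samples, fewer cells of a type and less RNA per cell cannot be told apart. Strand use in the counting is not stated.

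Matrix genes took a far larger share of the cultures than of the sorted cells. All members together took 30740, 33282 and 27659 ppm of the 3 cultures, and 1799 to 3623 ppm of the sorted libraries. In sorted cells Sparc, which encodes a collagen-binding secreted glycoprotein, carried 87.9% of the members' summed ppm in sham and 90.1% in OHT. Without Sparc the members summed to 188 to 433 ppm in sorted libraries and 24484 to 29686 ppm in cultures, a ratio of means of 91.7. Of the 58 members in both tables, 44 were higher in all 3 cultures than in all 6 sorted libraries, against 32.5% of the 15438 genes in both tables. A further 5 were lower in every culture than in any sorted library, against 16.5% of those genes, and 9 overlapped. The culture mean was at least 10 times the sorted mean for 37 members, against 6.48% of all genes. The median log2 ratio of culture over sorted ppm was 5.43 for members and 0.22 for all genes. No test was made across the tables, and age, preparation, serum and cell makeup differ together between the preparations and cannot be told apart.

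**Figure D1:**
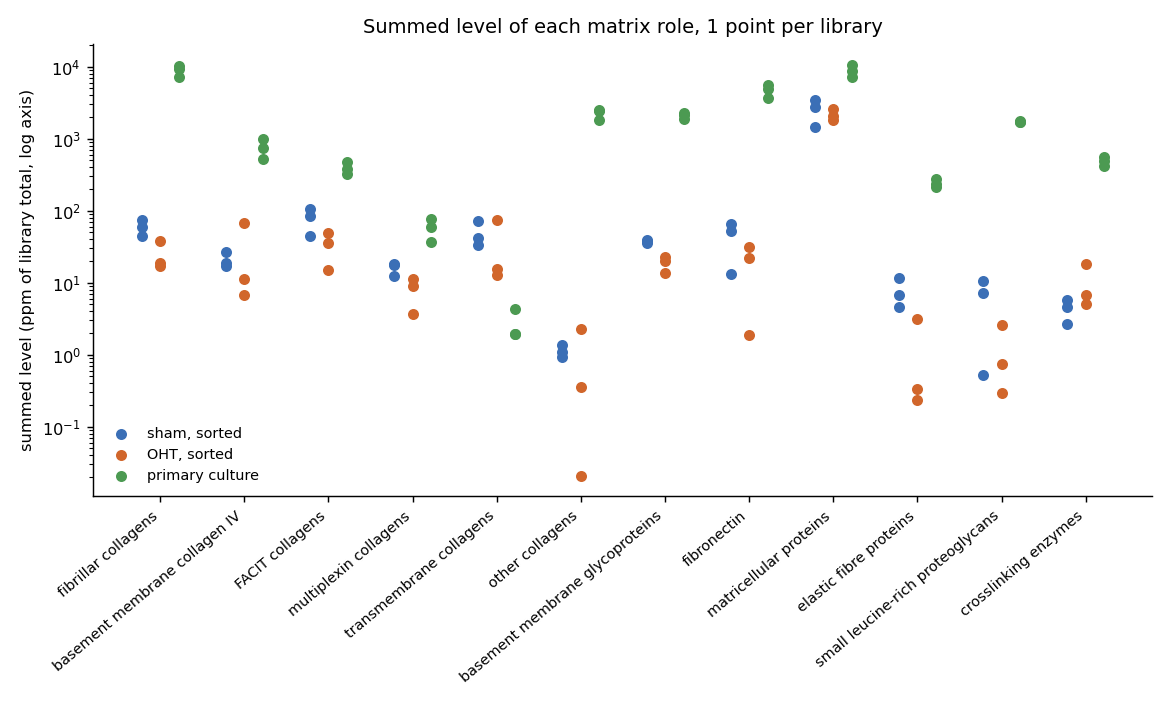
Summed level of the members of each matrix role in each of the 9 libraries, in ppm of the library total on a log axis, with 1 point per library; blue is sham, orange OHT and green primary culture. Collagen VI is left out because 1 library had none of it. Fibrillar collagens reached 7172 to 10044 ppm in the cultures and 17.2 to 74.8 ppm in sorted libraries, while transmembrane collagens were lower in the cultures.

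Sequences around the start site are shown for members at the ends of this range: Col1a2 and Col8a1, high in the cultures and low in sorted cells; Col23a1, high in sorted cells only; Sparc, high in both; and Col4a2, whose start lies head to head with that of Col4a1. They are RefSeq promoter windows of 300 bases (250 before to 50 after the start) on build GRCm38.p6, not the mm39 build of the study, written 5′ to 3′ along the gene's strand. Capitals mark a match, on either strand, to the TATA box (TATAAA), the CCAAT box, the GC box (GGGCGG) or the AP-1 motif (TGANTCA).
Col1a2 (chr6:4505368-4505667, plus strand): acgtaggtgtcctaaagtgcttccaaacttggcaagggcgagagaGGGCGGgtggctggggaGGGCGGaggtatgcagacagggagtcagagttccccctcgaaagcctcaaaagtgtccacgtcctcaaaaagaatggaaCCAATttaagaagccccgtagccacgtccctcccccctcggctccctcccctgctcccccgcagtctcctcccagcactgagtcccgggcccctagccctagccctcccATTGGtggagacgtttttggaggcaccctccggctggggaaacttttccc
Col8a1 (chr16:57754688-57754987, minus strand): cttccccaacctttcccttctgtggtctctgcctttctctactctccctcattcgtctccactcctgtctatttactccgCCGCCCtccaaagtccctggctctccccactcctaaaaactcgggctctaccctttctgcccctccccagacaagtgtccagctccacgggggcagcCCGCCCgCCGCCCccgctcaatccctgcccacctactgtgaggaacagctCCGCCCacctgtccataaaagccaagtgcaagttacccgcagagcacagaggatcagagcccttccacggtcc
Col23a1 (chr11:51289670-51289969, plus strand): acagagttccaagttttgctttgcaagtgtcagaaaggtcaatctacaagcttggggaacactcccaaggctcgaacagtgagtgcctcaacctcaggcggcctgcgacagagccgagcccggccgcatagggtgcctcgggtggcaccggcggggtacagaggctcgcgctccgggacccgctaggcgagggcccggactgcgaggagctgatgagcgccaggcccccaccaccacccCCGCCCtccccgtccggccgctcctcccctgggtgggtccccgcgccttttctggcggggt
Sparc (chr11:55420031-55420330, minus strand): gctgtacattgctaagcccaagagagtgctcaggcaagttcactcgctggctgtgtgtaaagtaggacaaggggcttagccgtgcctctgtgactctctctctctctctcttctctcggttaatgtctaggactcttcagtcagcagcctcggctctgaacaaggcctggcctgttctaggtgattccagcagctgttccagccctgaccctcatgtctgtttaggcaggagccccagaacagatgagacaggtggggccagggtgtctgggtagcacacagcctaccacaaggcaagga
Col4a2 (chr8:11312555-11312854, plus strand): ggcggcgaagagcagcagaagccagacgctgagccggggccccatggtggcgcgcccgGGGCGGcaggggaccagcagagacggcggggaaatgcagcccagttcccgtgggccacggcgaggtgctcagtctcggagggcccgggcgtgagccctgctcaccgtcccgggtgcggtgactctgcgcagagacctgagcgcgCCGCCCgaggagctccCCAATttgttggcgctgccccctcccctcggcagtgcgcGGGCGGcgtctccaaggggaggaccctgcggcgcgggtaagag
Col8a1 had 4 matches to GGGCGG, the GC box bound by SP1, and Col1a2 had 2 matches to GGGCGG and 2 to CCAAT. Col23a1 had 1 GC box and Sparc had no match to any of the 4. The windows found for 45 member genes (50 windows) held GGGCGG in 60.0% against 35.7% of all 32851 windows, CCAAT in 34.0% against 37.4%, TATAAA in 18.0% against 13.6%, and TGANTCA, the AP-1 motif, in 2.0% against 7.81%. Matches describe letters, not bound sites.

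Fibrillar collagens made up most of the collagen RNA of the cultures. Col1a1, the main chain of collagen I and the member of the highest mean ppm in the cultures, was at 4121, 6510 and 6521 ppm there (mean 5717 ± 1383 ppm, SD, n = 3). In culture replicate 1 Sparc and Fn1 were above it. In the sorted libraries Col1a1 stood at 1.53, 2.18 and 0.742 ppm in sham and 0.315, 0.0187 and 0.912 ppm in OHT, and the value of OHT replicate 2 was 1 read. Col1a2, its partner chain, was at 1503, 1493 and 1246 ppm in cultures and at most 4.50 ppm in a sorted library. No sorted library came near any culture for either chain of collagen I. Col5a2, a collagen V chain that sets fibril diameter, was at 804 to 1054 ppm in the cultures and had 11 reads over all 6 sorted libraries. Col3a1 was at 389 to 538 ppm in cultures and at 0 in 4 of the 6 sorted libraries.

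Among collagens II, IX and XI, those of vitreous fibrils, the cultures were below every sorted library for Col9a1 and Col9a2, above for Col11a1 and overlapping for Col2a1, Col9a3 and Col11a2. Col2a1, the chain of collagen II, was at 24.7, 46.6 and 29.4 ppm in sham, 2.79, 8.68 and 12.6 ppm in OHT and 3.74, 5.14 and 5.11 ppm in the cultures. Col9a1, which forms collagen IX on collagen II fibrils, was the highest collagen of the sham libraries per kilobase of transcript, at 14.4 ppm per kb. Its level was 10.6 to 80.3 ppm in sorted libraries and 1.80 to 2.59 ppm in cultures, a sorted mean 17.6 times the culture mean. Col9a2 was at 0.728 to 4.00 ppm in sorted libraries and at 0.0452 to 0.0652 ppm in cultures, where 3 reads are worth 0.0391 to 0.0452 ppm. Col11a1 was at 63.4, 112 and 74.4 ppm in cultures, 77.9 times its sorted mean. Col27a1, a fibrillar collagen of cartilage, was at 5.67 to 29.5 ppm in sorted libraries and 0.846 to 1.59 ppm in cultures. Col15a1, a multiplexin of basement membrane zones, stood 44.0 times higher in sorted cells by mean ppm, and Col23a1, a transmembrane collagen, 23.0 times higher. The culture values of Col15a1 were few reads, at 0.0302, 0.225 and 0.0782 ppm, so its ratio is loose. Col9a1, Col9a2, Col27a1, Col15a1 and Col23a1 are the 5 members lower in every culture than in any sorted library. Col2a1 was not among them, since its culture values lay within the OHT range.

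**Figure D2:**
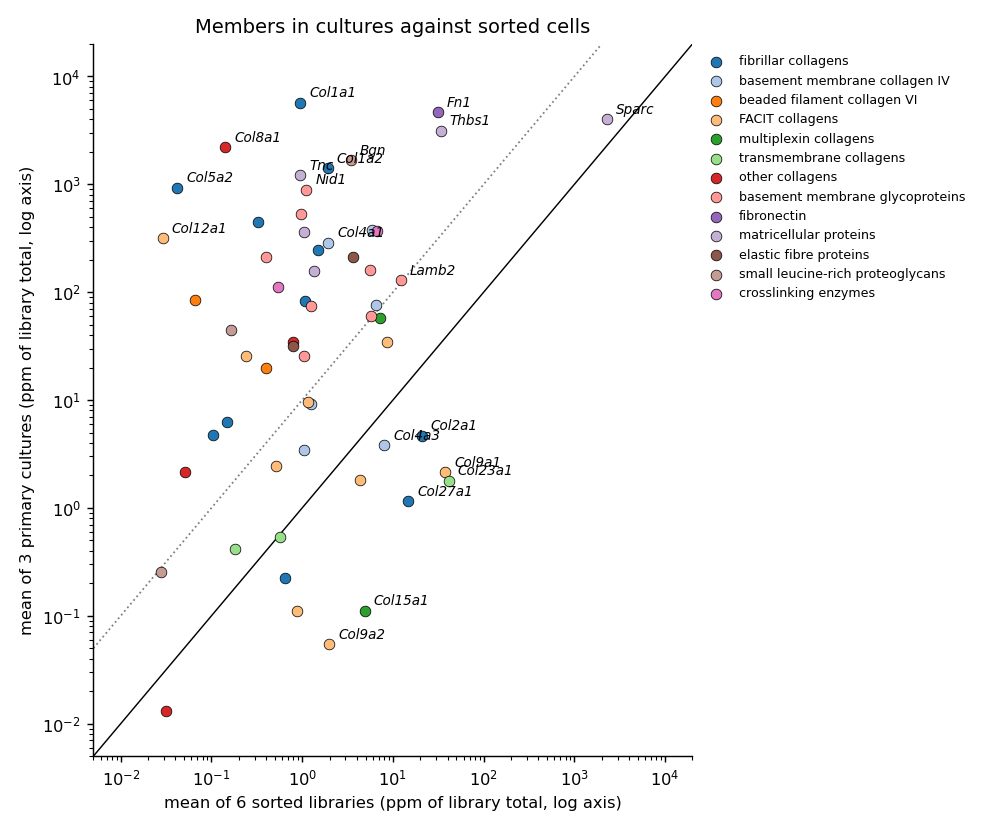
Mean level of the 58 members listed in both tables, in ppm on log axes, with the 6 sorted libraries across and the 3 cultures upward; colours give the role, the solid line equal levels and the dotted line a 10-fold higher culture level. Col1a1, Fn1 and Col8a1 lie far above the solid line, Sparc close to it, and Col9a1, Col23a1, Col27a1, Col15a1 and Col9a2 below it.

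Among the other collagens of the cultures, Col8a1, a short-chain collagen of Descemet's membrane and vessel walls, was at 2464, 2355 and 1768 ppm, and had 34 reads in all over the 6 sorted libraries. Its partner chain Col8a2 was listed for the cultures only, at 6.06, 15.8 and 31.2 ppm. Col12a1, a FACIT collagen that binds collagen I fibrils, was at 266, 367 and 315 ppm in cultures and had 7 reads over the sorted libraries. For collagen VI, which forms beaded filaments from 3 different chains, Col6a1 was at 60.8 to 89.2 ppm, Col6a2 at 11.7 to 25.1 ppm and Col6a3 at 77.3 to 98.2 ppm in cultures. Sorted libraries had 21 reads of Col6a3 in 2 OHT libraries and none in sham. Col7a1, the anchoring fibril collagen, was at 25.3 to 42.8 ppm in cultures and at most 2.06 ppm in a sorted library. Col18a1, the precursor of endostatin, was at 36.9 to 76.6 ppm in cultures and 0.966 to 15.2 ppm in sorted cells.

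Glycoproteins of the interstitial and basement membrane matrix were, apart from Sparc, also above every sorted library in the cultures. Fn1, fibronectin, was at 4836, 5498 and 3662 ppm (mean 4665 ± 930 ppm, SD, n = 3) against 1.89 to 64.4 ppm in sorted libraries, a 150-fold ratio of means. Thbs1, thrombospondin 1, which can activate latent TGF-beta, was at 3619, 3274 and 2526 ppm against 12.3 to 74.6 ppm. Bgn, biglycan, was at 1636 to 1711 ppm against 0.212 to 9.98 ppm, and Tnc, tenascin C, at 1111 to 1322 ppm against 0 to 2.79 ppm. Nid1, which links laminin to collagen IV, was at 780 to 953 ppm, and Lamb1, a laminin beta chain, at 491 to 561 ppm. All 8 laminin, nidogen and perlecan genes were above every sorted library. Lox, which crosslinks collagen and elastin, was at 322 to 427 ppm against 1.93 to 18.5 ppm. Fbn1, the microfibril protein fibrillin 1, was at 193 to 231 ppm in cultures against 0.233 to 8.96 ppm. Sparc alone of the noncollagen members overlapped, at 5235, 3596 and 3174 ppm in cultures and 1436 to 3375 ppm in sorted libraries.

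Compared per kilobase of the longest annotated transcript, the order in the cultures was Sparc (1740 ppm per kb), Col1a1 (964), Bgn (627), Fn1 (561), Thbs1 (537) and Col8a1 (430). Sparc lay above Col1a1 in each culture, at 1380 to 2276 against 695 to 1100 ppm per kb, while the ranges of Bgn (613 to 642), Fn1 (440 to 661) and Thbs1 (432 to 619) overlapped. Over all 6 sorted libraries Sparc stood at 1004 ppm per kb, and Col9a1, next in order, at 9.83, followed by Col23a1 at 7.26, Thbs1 at 5.76 and Col2a1 at 4.07. In sham alone Col9a1 came after Sparc and Thbs1, at 3.33, was the sixth, while in OHT Thbs1 at 8.20 came next to Sparc, before Col23a1 at 6.04 and Col9a1 at 5.30. Below Sparc the neighbours in this order had overlapping ranges, at 2.78 to 20.9 ppm per kb for Col9a1 (9.83 ± 6.67, SD, n = 6) and 2.27 to 13.1 for Col23a1 (7.26 ± 4.65). These ranges pool sham and OHT and do not compare the genes within a library. The median ratio of highest to lowest culture, in ppm, was 1.45 over the 52 members with a culture mean of at least 1 ppm. That of sham, in normalized counts, was 3.42 over 40 tested members above 0 in all 3. The medians cover different members and scales, and 26 members had a sorted mean under 1 ppm, where counting error is larger. The widest culture ratio among the 52 was that of elastin (Eln), 5.24, with 8.94, 46.8 and 39.1 ppm.

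The comparison of OHT with sham in sorted cells asked whether raised pressure changes the glial transcriptome. No member passed the test, with a lowest adjusted p of 0.332 (limma across 14403 genes, Benjamini-Hochberg), and neither did any other gene (0.0% of all genes tested). Of the 59 listed members, 46 had a mean of at least 10 normalized counts and were tested, 15 of them at 0 in at least 1 library. At an unadjusted p under 0.05, 6 members were lower in OHT (Col2a1, Col9a1, Col9a3, Lamb2, Fbn1 and Eln) and 1 higher (Thbs1), against 6.3% and 5.37% of all genes. The count of 6 was 3 without sham replicate 2. Every OHT library was below every sham library for 8 members, those 6 with Col5a1 and Col9a2, and above for 1, Thbs1, against 9.18% and 9.26% of all genes. Differences were below 0 in 33 of 46 members, against 54.8% of all genes, and the median log2 difference was -1.36 against -0.12. Members that pass a filter on their mean through 1 group only are bound to differ, so these counts are descriptions. Eln, among the 6 lower members, passed through sham only. edgeR's quasi-likelihood test called 0 members, and DESeq2 called 2 of its 250 genes among members, Col2a1 (adjusted p = 0.0249) and Lama4. Lama4, a laminin alpha chain of vessels, had 160, 0 and 93.8 normalized counts in sham and 0 in all OHT libraries, so it also passed the filter through sham only.

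**Figure D3:**
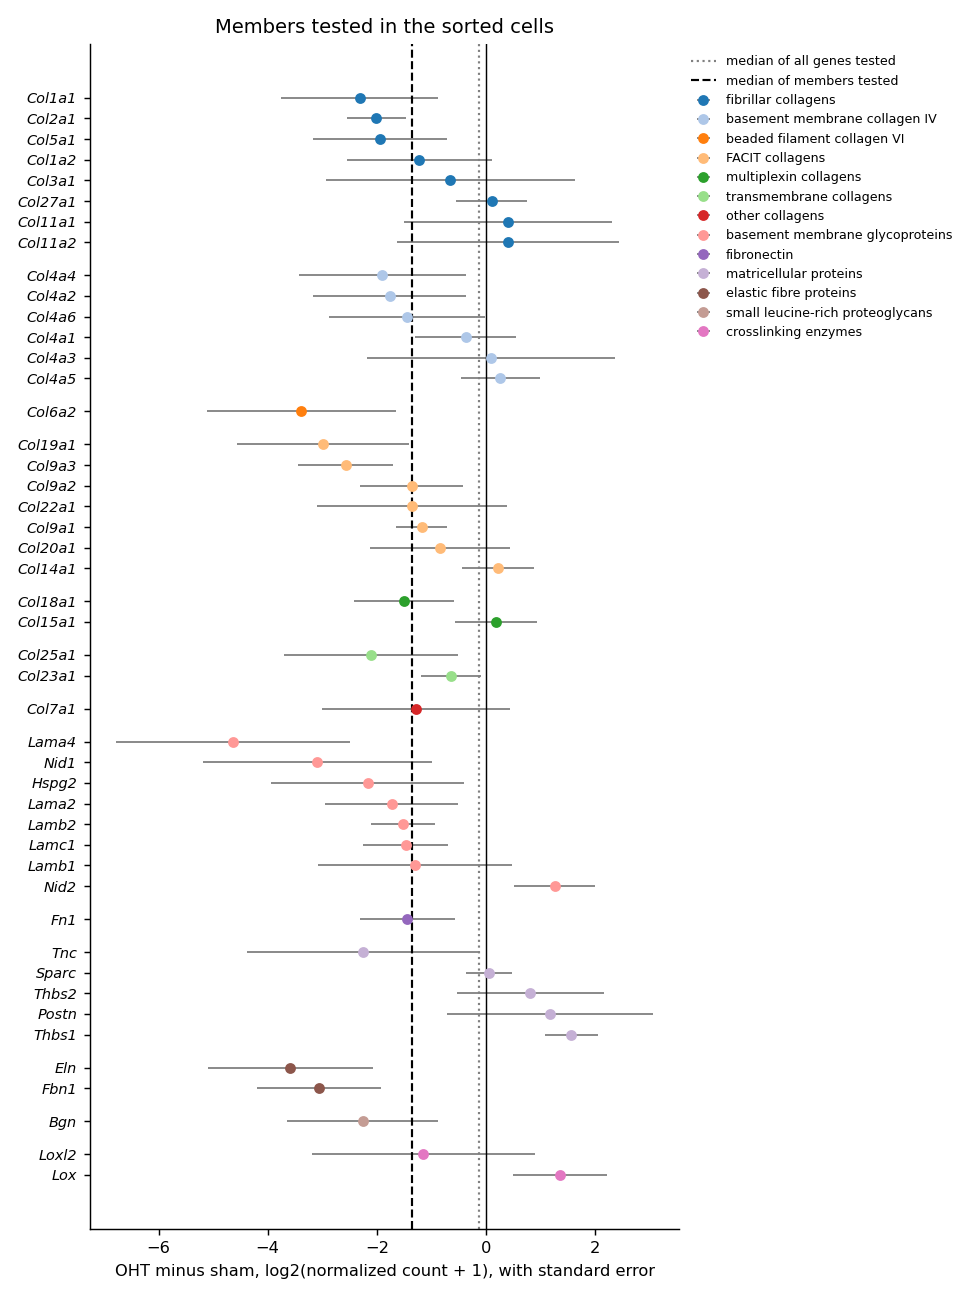
OHT minus sham on the log2(normalized count + 1) scale for the 46 members tested, by role; points are limma estimates and bars standard errors, the dashed line is the members' median of -1.36 and the dotted line the median of all genes, -0.12. Most bars are wide, and Thbs1 at 1.56 is the highest value.

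Genes of the collagen II and IX fibril were lower in each OHT library than in any sham library, as were 9.18% of all genes. Col2a1 had 964, 1834 and 1252 normalized counts in sham and 184, 383 and 474 in OHT. The groups were apart by a log2 difference of -2.01 (SE 0.54, unadjusted p = 0.00313, limma adjusted p = 0.332). Col9a1 was at 1133, 3158 and 2377 in sham and at 701, 1034 and 1015 in OHT, a log2 difference of -1.18 (SE 0.46). Sham replicate 1 lay close to the OHT values of Col9a1, and the other sham libraries lay well above. Col9a2 was at 74.4, 121 and 170 in sham and 48.4, 32.1 and 55.3 in OHT (log2 difference -1.37, SE 0.94, unadjusted p = 0.173, limma adjusted p = 0.559). Col9a3 was at 171, 303 and 436 against 33.2, 32.9 and 93.0, a log2 difference of -2.57 (SE 0.88, unadjusted p = 0.0131, limma adjusted p = 0.343). In GENCODE M21 6.07% of the exonic bases of Col9a3 lie opposite exons of Tcfl5, so reads of that gene could enter where strand was not used. Col11a1 and Col11a2, chains of collagen XI, had overlapping groups, with log2 differences of 0.40 (SE 1.90) and 0.40 (SE 2.04).

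**Figure D4:**
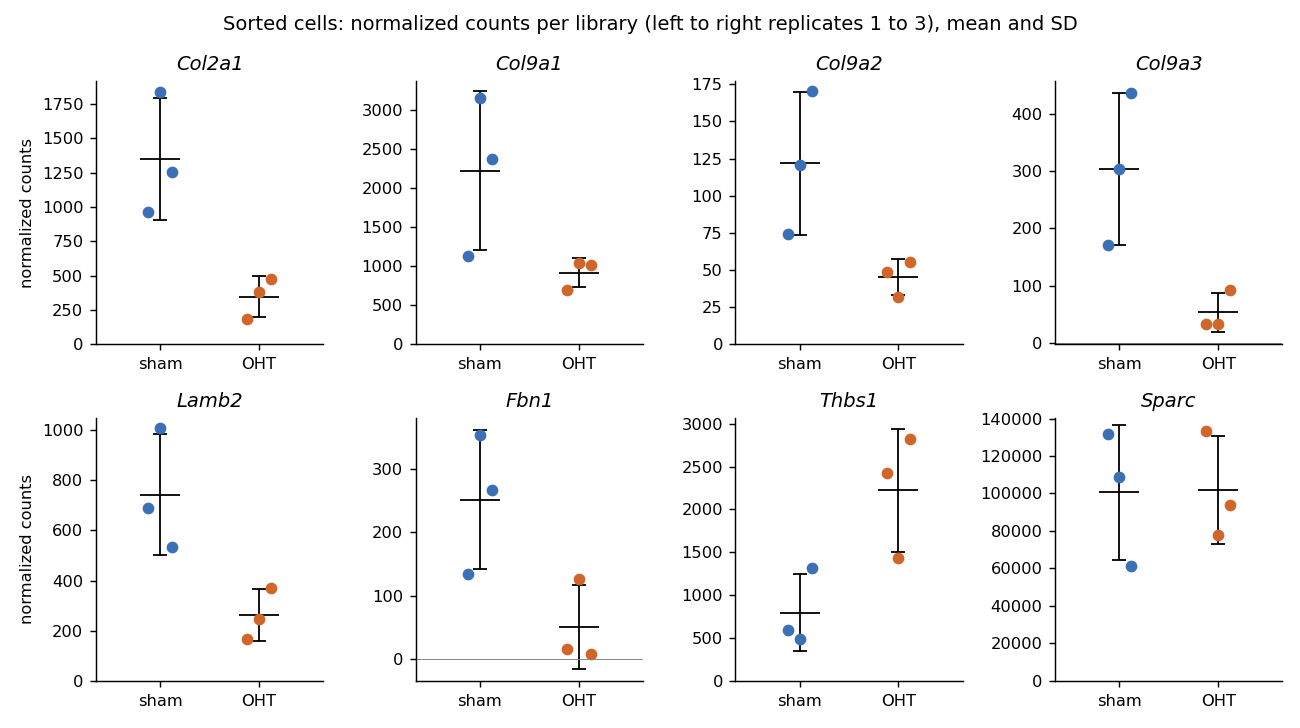
Normalized counts of 8 members in the 6 sorted libraries, with 1 point per library, the mean as a bar and the SD (n = 3) as whiskers; each panel has its own linear axis. Col2a1, the 3 collagen IX genes, Lamb2 and Fbn1 have all OHT points below the sham points, Thbs1 has them above, and Sparc overlaps.

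Marker genes of several cell types also had mostly log2 differences below 0, and most of them had overlapping groups. The 10 Müller glia markers summed to 3262, 7778 and 3081 ppm in sham and 1564, 1627 and 3571 ppm in OHT, and all 10 had a log2 difference below 0 (median -0.87). Among them Sox9, a transcription factor of Müller glia and of chondrocytes that acts on Col2a1 and Col9 genes elsewhere, was at 80.1, 234 and 179 ppm in sham and 32.4, 39.2 and 50.6 ppm in OHT (log2 difference -1.65, SE 0.42, unadjusted p = 0.00237). The 7 rod markers summed to 2276, 22599 and 17991 ppm in sham and 737, 911 and 2858 ppm in OHT. All 7 had a log2 difference below 0 (median -2.37), against 54.8% of all genes. Both sums overlapped between the groups. By normalized counts 2 of the 10 Müller glia markers and 2 of the 7 rod markers had every OHT library below every sham library, against 9.18% of all genes. At an unadjusted p under 0.05 with limma, 6 rod markers and 1 Müller glia marker were lower in OHT, against 6.3% of all genes. The part of cell makeup in the collagen values was not tested.

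Basement membrane genes were mostly low and scattered. Lamb2, the laminin beta 2 chain of the inner limiting membrane, had 688, 1006 and 533 normalized counts in sham and 169, 247 and 371 in OHT, without overlap (log2 difference -1.52, SE 0.58, unadjusted p = 0.0229, limma adjusted p = 0.372). Lamc1, its gamma partner, was at 428, 223 and 349 against 64.9, 93.0 and 252, where OHT replicate 3 lay above sham replicate 2. Nid1 was at 63.0, 1.84 and 180 in sham and 52.5, 0 and 0 in OHT. Nid2 ran the other way, with 112, 153 and 162 in sham and 587, 427 and 151 in OHT, and the groups overlapped through OHT replicate 3 (log2 difference 1.26, SE 0.75, unadjusted p = 0.120). In GENCODE M21 8.45% of the exonic bases of Nid2 overlap Rtraf.

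Collagen IV chains differed in single libraries more than between groups. Col4a1 had 71.3, 120 and 92.8 normalized counts in sham and 135, 46.1 and 57.7 in OHT. Col4a2, which joins Col4a1 in the main collagen IV trimer, was at 283, 295 and 163 in sham and at 1050, 14.8 and 20.03 in OHT, so that OHT replicate 1 was the highest library and the other OHT libraries the lowest. Its limma log2 difference of -1.77 (SE 1.40) turned to 0.43 with edgeR and 0.55 with DESeq2. Col4a3, a chain of kidney, lung and eye basement membranes, was at 11.4, 84.9 and 206 in sham and 2523, 0 and 103 in OHT. Its log2 difference of 0.09 (SE 2.28) became -2.56 without OHT replicate 1. Col4a5 was at 205, 374 and 182 in sham and 634, 159 and 239 in OHT, and its 0.26 (SE 0.73) became -0.30 without that library. Lox had 1215 in OHT replicate 1 against 75.4 to 225 in the other 5 libraries (log2 difference 1.35, SE 0.87).

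Col4a1 and Col4a2 share a start region: on GRCm38.p6 the start of Col4a1 lies at chr8:11312826 on the minus strand and that of Col4a2 at chr8:11312805 on the plus strand, so the transcripts overlap by 22 bases and the windows by 78. The Col4a2 window printed above holds 3 GC boxes and 1 CCAAT, whose first base lies 32 bases before its start. Per kilobase, the ratio of Col4a1 to Col4a2 was 0.835, 0.751 and 0.669 in the cultures. In sorted cells it was 0.246, 0.396 and 0.556 in sham and 0.126, 3.03 and 2.81 in OHT. The ratio was therefore narrow in cultures and on both sides of 1 in OHT, where Col4a2 rested on 18 and 25 reads in replicates 2 and 3.

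**Figure D5:**
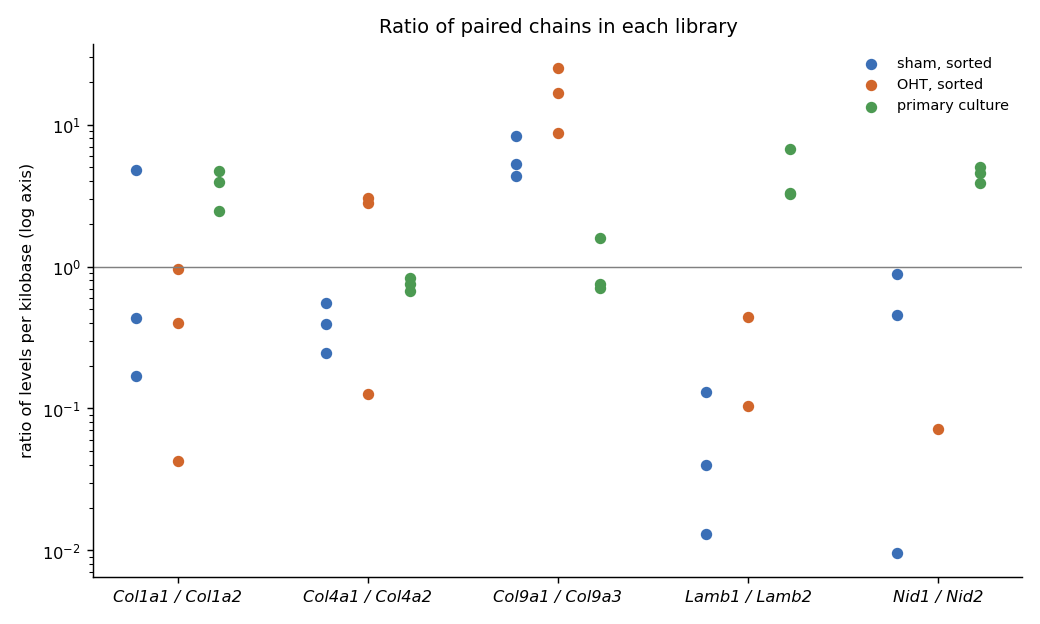
Ratio of 2 chains of a protein or family, in levels per kilobase on a log axis, with 1 point per library and a line at 1. Ratios of cultures lie close together, at 2.47 to 4.72 for Col1a1 over Col1a2, while sorted libraries scatter from 0.0429 to 4.76. These ends rest on 1 read of Col1a1 in OHT replicate 2 and 11 reads of Col1a2 in sham replicate 1. Libraries where 1 of the 2 genes is at 0 have no point (Lamb1 and Nid1 in some OHT libraries).

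The ratio of Col9a1 to Col9a3 per kilobase was 5.25, 8.27 and 4.33 in sham, 16.8, 24.9 and 8.68 in OHT and 0.710 to 1.60 in cultures, without overlap between the 3 groups. Col9a3 rested on 24 and 40 reads in OHT replicates 1 and 2. The ratio of Col9a1 to Col9a2 overlapped between sham (11.6, 19.9 and 10.6) and OHT (11.0, 24.6 and 14.0). Cultures used the laminin beta chains in the opposite proportion to sorted cells. Lamb1 over Lamb2 was 6.71, 3.27 and 3.26 in cultures and at most 0.441 in a sorted library. Nid1 over Nid2 was 5.02, 4.56 and 3.90 in cultures and at most 0.891 in a sorted library. Col1a1 over Col1a2 was 2.47, 3.93 and 4.72 in cultures.

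Fn1, Bgn and Col18a1 were high in sham replicates 2 and 3 and low in sham replicate 1. Fn1 had 522, 2067 and 2739 normalized counts in sham and 124, 1403 and 842 in OHT, with overlap (log2 difference -1.44, SE 0.87, unadjusted p = 0.126). Bgn was at 20.7, 280 and 425 in sham and 22.1, 113 and 8.01 in OHT. Col18a1 was at 111, 586 and 648 in sham and 63.6, 292 and 97.8 in OHT. The same 2 sham libraries carried most of the RNA of Pdgfra and of the astrocyte marker Gfap. Pdgfra, a receptor of fibroblasts and oligodendrocyte precursors that retinal astrocytes also express, was at 0, 111 and 126 ppm in sham and 6.38, 0 and 4.50 ppm in OHT. Gfap was at 3.99, 569 and 1121 ppm in sham and 47.0, 8.38 and 83.2 ppm in OHT. The fibroblast list, of which 6 of 8 genes were listed, summed to 0.502, 114 and 129 ppm in sham and 5.07 to 6.57 ppm in OHT. Pdgfra averaged 79.1 ppm of the mean sum of 81.1 ppm in sham. Of the other listed genes Prrx1, Twist1 and Cd248 were at 0 to 1.12 ppm in every sorted library. Islr was highest in OHT replicate 2, at 6.29 ppm, against 0.238 to 1.98 ppm in sham. The part of fibroblasts and astrocytes in these values was not tested.

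The 2 elastic fibre genes were lower in OHT without overlap. Fbn1 had 134, 352 and 267 normalized counts in sham and 16.6, 127 and 8.82 in OHT (a difference of -3.06 in log2, SE 1.13, unadjusted p = 0.0197, limma adjusted p = 0.365). Eln was at 43.4, 110 and 23.9 in sham and 5.53, 9.88 and 0 in OHT (log2 difference -3.58, SE 1.51, unadjusted p = 0.0363). Eln passed the filter on the mean through sham only (means of 59.0 and 5.1), so its difference was in part bound by the filter. Sham replicate 1 and OHT replicate 2 lay close together for Fbn1. Of the exonic bases of Fbn1, 20.1% lie opposite another annotated gene. The 8 mural markers, of pericytes and smooth muscle, summed to 124, 215 and 261 ppm in sham and 56.1, 9.74 and 27.0 ppm in OHT. Rgs5 carried most of that sum in sham, at 102, 187 and 226 ppm, and was at 29.4, 4.85 and 19.8 ppm in OHT. By normalized counts 3 of the 7 tested mural markers were below all sham libraries (Pdgfrb, Rgs5 and Notch3), against 9.18% of all genes. Cspg4 had a log2 difference of 0.19, and Kcnj8 and Acta2 stood at 15.3 and 8.25 ppm in OHT replicate 1, against 1.81 to 5.19 and 0.952 to 18.01 ppm in sham. Tagln was at most 0.0703 ppm. The 9 endothelial markers summed to 226 to 488 ppm and 109 to 207 ppm. The part of vessel cells in the matrix values was not tested.

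Of the 5 matricellular genes, 1 was apart between the groups. Of all genes, 9.18% had every OHT library below every sham library and 9.26% above. Thbs1 had 594, 485 and 1311 normalized counts in sham and 2421, 1427 and 2819 in OHT, so every OHT library was above every sham library. The log2 difference was 1.56 (SE 0.49, unadjusted p = 0.00826, limma adjusted p = 0.332), a mean of 797 ± 449 against 2222 ± 717 (SD, n = 3). Sham replicate 3 lay close to OHT replicate 2. Markers of microglia and macrophages, cells that can also make thrombospondin 1, had 8 of 10 log2 differences above 0, against 6517 of the 14403 genes tested. Their sum was 14392 to 25443 ppm in sham and 20273 to 21982 ppm in OHT, and their part was not tested. Sparc was at 131854, 108754 and 61112 in sham and 133524, 77838 and 94027 in OHT, a log2 difference of 0.05 (SE 0.42) whose sign turned with edgeR (-0.053) and quantile normalization (-0.24). Thbs2, Postn and Tnc had overlapping groups, at 0.81 (SE 1.35) for Thbs2, 1.16 (SE 1.89) for Postn and -2.24 (SE 2.14) for Tnc on the log2 scale.

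The remaining named collagens also overlapped between groups. Col23a1 had 1284, 2769 and 1725 normalized counts in sham and 846, 687 and 2800 in OHT, with OHT replicate 3 the highest of all (log2 difference -0.64, SE 0.55). Col1a1 was at 59.9, 85.8 and 31.6 against 20.7, 0.823 and 34.5 (log2 difference -2.31, SE 1.44, unadjusted p = 0.135). Col7a1 was at 10.3, 50.7 and 31.6 against 0, 15.6 and 77.7, and its log2 difference of -1.29 (SE 1.73) was 0.016 with DESeq2. Col6a2 was at 50.6, 29.5 and 7.65 against 11.1, 0 and 0, Col8a1 had 33 reads in sham and 1 in OHT, and Col12a1 5 reads and 2.

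Members are long genes, with a median longest transcript of 5.91 kb against 3.41 kb for all tested genes, and length moved with the comparison. Over all tested genes the median difference on the log2 scale was 0.29 under 2 kb, -0.15 at 2 to 4 kb, -0.26 at 4 to 6 kb, -0.26 at 6 to 8 kb and -0.39 from 8 kb upward. Members of the last 4 bins had medians of -1.81, -0.996, -1.45 and -1.73. The part of transcript length in the members' values was not tested further.

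Genes that build collagen were followed in a list of 28 for prolyl and lysyl hydroxylation, folding, secretion, propeptide cleavage and crosslinking. Of 26 tested, none passed; 6 were lower and 0 higher in OHT at an unadjusted p under 0.05, and the median log2 difference was -0.96, against 6.3%, 5.37% and -0.12 for all genes tested. P4ha2, a catalytic subunit of collagen prolyl 4-hydroxylase, had 289, 661 and 399 normalized counts in sham and 40.1, 78.2 and 97.0 in OHT, a log2 difference of -2.64 with an SE of 0.77 (adjusted p = 0.332 with limma). Loxl1, a crosslinking enzyme of elastic fibres, was at 199, 678 and 703 against 37.3, 126 and 24.0 (log2 difference -3.21, SE 0.92, limma adjusted p = 0.332). Both were without overlap. P4hb, the partner subunit and a general disulfide isomerase, had all OHT libraries above sham, at 20356, 23577 and 25945 against 16971, 14789 and 16565 (log2 difference 0.53, SE 0.30). In the cultures 18 of the 28 were above every sorted library and 1, P3h2, a prolyl 3-hydroxylase, was below, against 32.5% and 16.5% of all genes in both tables. Serpinh1, the collagen chaperone HSP47, averaged 6417 ppm in cultures and 48.3 ppm in sorted cells, and Pcolce, the enhancer of procollagen C-proteinase, 634 and 4.23 ppm.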

How the data were processed

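RNA sequencing of 3 sham, 3 OHT and 3 primary culture libraries was used (WT mice, 150 bp paired-end reads from amplified cDNA, per the labels' protocols). Reads were trimmed with Trim Galore 0.6.6 and aligned with STAR 2.7.1a to mm39, per the submitters' processing notes, which also name bcl2fastq 2.20 and FastQC 0.11.9. For the counting program, the annotation and the normalization tool, the name is not given in the sources used here. The deposited signal is normalized counts per gene, in 1 table for sorted cells and 1 for cultures. Values divided by 1 step per library gave whole reads (tolerance 0.05), and in the sorted table the authors' factors equalled DESeq2's median-of-ratios factors. The step of culture replicate 3 lies too close to 1 to check its reads. Intervals of depth cover counting error only, since amplified reads are not independent molecules.

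OHT was compared with sham by limma 3.58.1 (trend, R 4.3.3) on log2(value + 1), which understates changes of low genes, in 14403 genes with a mean of at least 10, with Benjamini-Hochberg adjustment over all of them and a threshold of 0.05. Cultures and sorted cells were set side by side in ppm, without a test. Alternatives were edgeR 4.0.16 and DESeq2 1.42.0 on recovered reads, other scalings, filters and pseudocounts, a replicate block, and leaving out each library. Lengths and exon overlaps came from GENCODE M21 (GRCm38) and promoter windows from RefSeq, with no conversion between builds. The script was tested on simulated data. Python 3.11.15, numpy 2.4.6, pandas 2.3.3 and matplotlib 3.10.9 made tables and figures.

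Genes with values per library were Col1a1, Fn1 and Col4a1, the highest member of each role in sorted cells and in cultures, and the 4 members of smallest p per direction among those with a mean of at least 100, which gave 24 genes; partner chains were added. Members and lists were chosen with earlier results of these data known.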

Additional observations from a re-analysis of the deposited data

How the results depend on the processing

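No member passed the threshold under any alternative of limma or with edgeR. DESeq2 called 250 genes, 2 of them members, and gave no adjusted p for 510 genes. Over all genes, leaving out 1 library called 0 to 12, with 12 without sham replicate 1 and 7 without sham replicate 3. The sorted samples are not known to be paired: deviations of same-numbered samples correlated at 0.08, -0.02 and -0.05 across genes, and the replicate block called 2 genes, no member. Members lower in OHT at an unadjusted p under 0.05 numbered 3 to 8 with 1 library left out (3 without sham replicate 2), and members higher numbered 1 to 2 (2 without OHT replicate 3), 2 with quantile normalization and 3 with DESeq2. The members' median log2 difference was -0.68 with quantile normalization, beside 0.01 for all genes, and -1.66 to -1.12 with 1 library left out.

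The sign turned for some members with wide errors. Col4a2 was at 0.43 with edgeR and 0.55 with DESeq2, Col7a1 at 0.016 with DESeq2, Sparc at -0.053 with edgeR and -0.24 with quantile normalization, Col4a1 at 0.40 with quantile normalization, and Col4a3 at -0.22 with a pseudocount of 0.5. Leaving out 1 library gave -2.56 to 3.09 for Col4a3, -0.30 to 0.69 for Col4a5, -2.71 to 0.44 for Col7a1 and -0.27 to 0.28 for Sparc. Without OHT replicate 1, Col4a3 was at -2.56, Col4a5 at -0.30, Col7a1 at 0.44 and Sparc at -0.16. Without OHT replicate 3 and sham replicate 1, Col4a3 was at -0.26 and -1.06, and without sham replicate 3 Sparc was at -0.27. The cause was not tested. Of values for OHT minus sham, 295 kept sign and side of the threshold and 14 turned.

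Between preparations, 42 to 45 members were above all sorted libraries and 5 or 6 below under every alternative run, and the log2 ratio of the summed level, 3.56, ranged from 3.18 to 3.67. Of the single members' ratios of culture over sorted ppm, 190 values moved by less than the spread between replicates, 73 moved by more with their sign kept, and 1 turned. That was Col4a3, from -1.08 to 0.93 without OHT replicate 1 (range -1.34 to 0.93). Depth limits members such as Col5a2 and Col12a1, with 11 and 7 reads over the sorted libraries.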

Other observations

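Matrix genes outside the rule were read from a list of 26 further basement membrane, elastic fibre and proteoglycan genes. In the cultures 21 of them were above every sorted library and 2 below, against 32.5% and 16.5% of all genes in both tables. Ecm1, a secreted matrix protein of skin and vessel walls, averaged 2305 ppm in cultures and 30.4 ppm in sorted cells. Efemp1, a fibulin of the retina and pigment epithelium, averaged 1400.0 ppm in cultures and 82.4 ppm in sorted cells, and Fbln2, another fibulin, 804 ppm in cultures with reads in a single sorted library (209 normalized counts in sham replicate 2). The 2 below were Tgfbi, at 6.12 ppm in cultures and 123 ppm in sorted cells, and Lama3, at 0.0871 and 0.712 ppm.

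In sorted cells 23 of the 26 were tested and 0 passed (limma, adjusted over all genes), 4 were lower and 0 higher in OHT at an unadjusted p under 0.05, and the median log2 difference was -0.96, against 6.3%, 5.37% and -0.12 for all genes tested. Agrn, agrin, a proteoglycan of the inner limiting membrane, had 518, 931 and 676 normalized counts in sham and 115, 206 and 462 in OHT, without overlap. Ddr1, a receptor for collagens, was at 746, 1923 and 1807 in sham and 247, 615 and 851 in OHT, with overlap. Ecm1 had the highest log2 difference of these, 1.22 (SE 0.56, unadjusted p = 0.0504), and its groups overlapped.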
